A study of Mus musculus with 6 samples.

Results

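A set of 35 genes of the cell cycle was followed in sorted microglia, brain-resident macrophages, of mice given an antibody against the human receptor LILRB4 or a control antibody. The genes were chosen by symbol, and all 35 were found among the 55493 genes of the count table. By role, 14 act in DNA replication, 20 act in mitosis and its preparation, and 1, Stmn1, encodes a protein that destabilises microtubules. All mice were male and carried both the ILT-Telo Tg transgene, which brings in human receptor genes, and 5XFAD, a set of transgenes that gives amyloid plaques. Antibody was injected into the abdomen every week, 8 times in all, starting at 4 months of age with 60 mg/kg each time. Both antibodies were Fc-mutant, the treated group receiving anti-LILRB4 (anti-ILT3, clone ZM3.1) and the control group a Ctrl mAb (27D6). Microglia, gated as CD11b-positive with low CD45, were sorted from one side of each divided brain, and 3 libraries were sequenced per group. The labels do not say that each library came from a separate animal, so the p-values below speak only of spread among libraries, which may be technical. Mice lacking a transgene or an injected antibody were not analysed here.

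A dividing cell first copies its DNA in S phase and then separates the copies in mitosis. Before S phase the MCM2-7 helicase is loaded onto DNA, and it is switched on by Cdc45 and the GINS complex. Mitosis is driven by Cdk1 bound to cyclins A and B, and it ends when the anaphase-promoting complex, activated by Cdc20, marks cyclin B and other proteins for destruction. Transcripts of replication genes rise under E2F transcription factors as cells leave rest, and those of mitotic genes rise later under the B-MYB and FOXM1 factors acting at CHR elements. Some replication proteins, such as Pcna, also serve DNA repair and are made in cells that do not divide. Adult microglia divide slowly, and more often around amyloid.

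The promoters are shown first because the split between replication and mitosis genes, which is by function, was also visible in their letters. RefSeq promoter windows (GRCm38.p6, 250 bases before to 50 bases after the start of the gene) were found for 29 of the 35 genes, 12 of replication and 17 of mitosis, and not for Aurkb, Ccna2, Gins2, Mcm4, Stmn1 and Tpx2. A CHR match, TTTGAA on either strand, was present in 12 of the 17 mitosis genes (70.6%) and in 2 of the 12 replication genes (16.7%, Mcm2 and Cdc45), beside 20.2% of all 27025 genes in the table. An E2F type match, TTTNNCGC on either strand, was present in 8 of the 12 replication genes (66.7%) and in 1 of the 17 mitosis genes (5.88%, Cdk1), beside 5.93% of all genes. The CCAAT box, bound by NF-Y, was present in 75% of the replication genes and 88.2% of the mitosis genes, beside 41.1% of all genes, and so did not separate the roles. Such matches are descriptions of the letters and were not matched for base composition. The stretches below are the 160 bases before the start of 5 genes, with CHR and E2F type matches in capitals. Mki67 and Cdc20 had the smallest p-values among the mitosis genes, Cdk1 was the mitosis gene with the highest mean CPM and held both motifs, and Mcm5 and Mcm6 are helicase subunits in which a match on one strand overlapped a match on the other.
Mki67, chr7:135716380-135716539, minus strand: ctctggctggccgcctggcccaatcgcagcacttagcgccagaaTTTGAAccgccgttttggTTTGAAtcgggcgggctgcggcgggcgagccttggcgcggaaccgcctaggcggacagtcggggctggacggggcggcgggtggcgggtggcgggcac
Cdk1, chr10:69352913-69353072, minus strand: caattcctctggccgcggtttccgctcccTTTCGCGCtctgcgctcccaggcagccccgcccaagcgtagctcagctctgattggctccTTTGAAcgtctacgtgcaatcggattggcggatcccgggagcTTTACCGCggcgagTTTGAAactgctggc
Cdc20, chr4:118437344-118437503, minus strand: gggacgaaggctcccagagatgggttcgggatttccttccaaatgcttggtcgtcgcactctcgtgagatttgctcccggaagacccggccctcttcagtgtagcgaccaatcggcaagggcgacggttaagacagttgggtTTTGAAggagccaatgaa
Mcm5, chr8:75109349-75109508, plus strand: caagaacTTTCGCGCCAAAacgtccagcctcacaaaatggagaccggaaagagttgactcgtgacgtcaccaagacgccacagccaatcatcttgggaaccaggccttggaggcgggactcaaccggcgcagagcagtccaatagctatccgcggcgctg
Mcm6, chr1:128359706-128359865, minus strand: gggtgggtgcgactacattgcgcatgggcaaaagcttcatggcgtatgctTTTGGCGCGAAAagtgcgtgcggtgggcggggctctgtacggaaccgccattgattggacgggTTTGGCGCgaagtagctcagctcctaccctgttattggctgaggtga

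**Figure D1:**
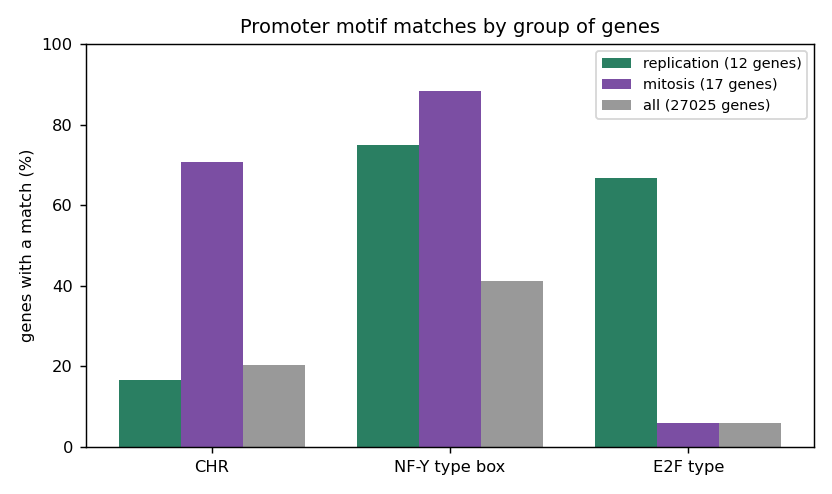
Bars give the percentage of genes with at least 1 match in the promoter window, for 12 replication genes, 17 mitosis genes and all 27025 genes of the RefSeq table. CHR matches stand at 70.6% in the mitosis genes and E2F type matches at 66.7% in the replication genes, while the NF-Y type box is frequent in both.

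Libraries held between 39805118 and 56345514 counted reads. Levels are given as CPM, read counts scaled to library size after TMM scaling, and as CPM per kilobase of exon where genes are compared with each other. Microglial markers were abundant in every library. The 10 microglial markers summed to between 42120 and 44233 CPM in controls and between 44712 and 46745 CPM in treated libraries, with P2ry12, a purinergic receptor, the most abundant, and the treated libraries all lay above the controls. In bulk libraries such as these, fewer dividing cells and less RNA per dividing cell cannot be told apart.

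Replication genes had more reads than mitosis genes on average, although single genes of the roles overlapped in level. The median over genes and libraries was 400.5 reads for a replication gene and 37 reads for a mitosis gene. Mean levels per length ran from 0.186 CPM per kilobase for Cdc6 to 22.8 for Pcna among replication genes, and from 0.0173 for Kif11 to 1.93 for Ccnb2 among mitosis genes. A mean under 1 CPM was found for 9 of the 20 mitosis genes, against 1 of the 14 replication genes. Averaged over the replication genes, controls 1 to 3 held 5.15, 4.46 and 4.90 CPM per kilobase, and anti-LILRB4 libraries 1 to 3 held 5.12, 4.78 and 4.24. Throughout, values are listed in this order of libraries. The mitosis genes averaged 0.459, 0.350 and 0.523 in controls and 0.617, 0.397 and 0.366 in treated libraries. Replication genes therefore stood 8.29 to 12.7 times above mitosis genes in each of the 6 libraries. The ratio averaged 11.1 ± 1.68 (SD, n = 3) for controls and 10.6 ± 2.05 for treated libraries, with the lowest value in anti-LILRB4 library 1 and the highest in control library 2.

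**Figure D2:**
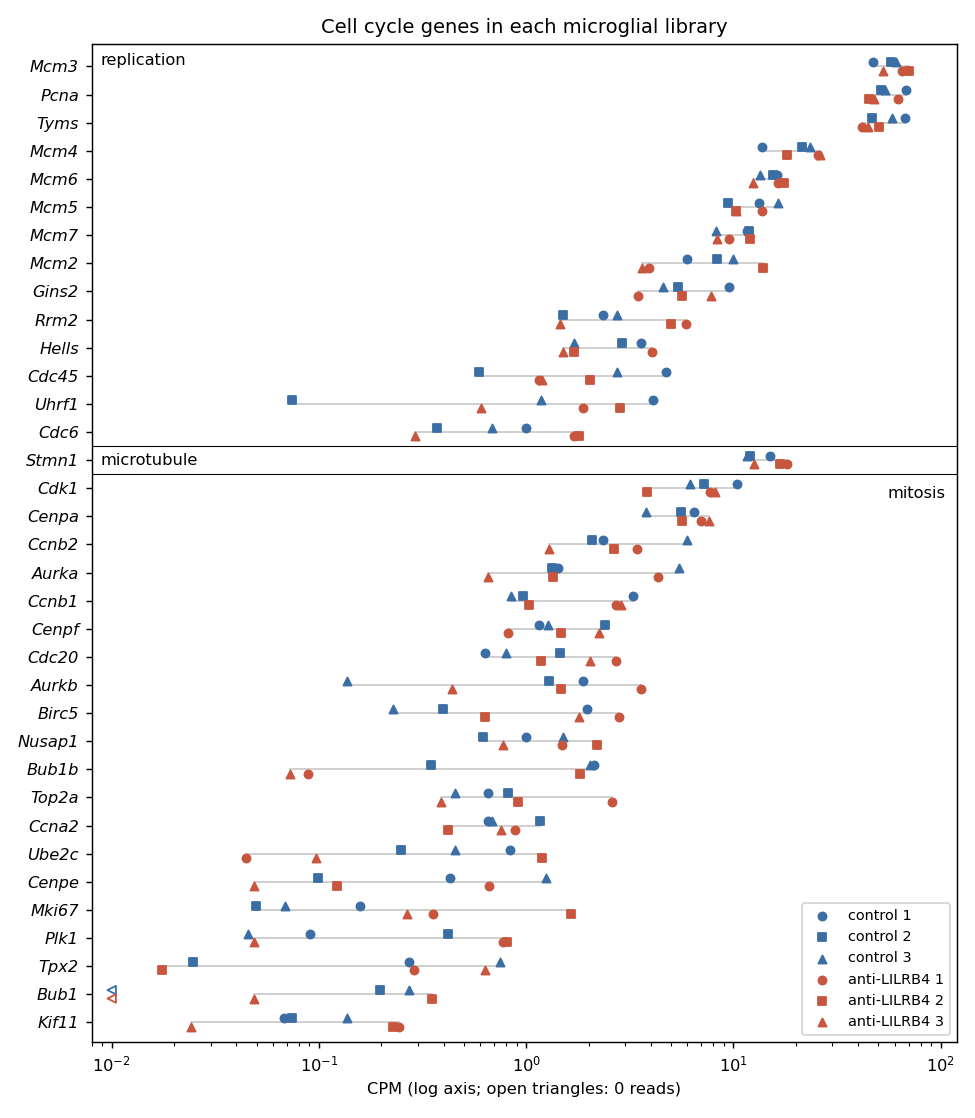
Each point is the CPM of 1 gene in 1 library on a log axis, with genes grouped by role and sorted by mean CPM, blue for control and red for anti-LILRB4 libraries, and open triangles for 0 reads. The 3 highest replication genes, Mcm3, Pcna and Tyms, keep to a narrow range, while mitosis genes such as Bub1b and Aurkb spread 29.2-fold and 26.3-fold with both groups intermixed.

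The helicase subunits Mcm2 to Mcm7, which form 1 ring and unwind DNA, were not at equal transcript levels. Per kilobase of exon, mean levels were 15.7 CPM for Mcm3, 5.95 for Mcm4, 3.27 for Mcm6, 3.07 for Mcm5, 2.32 for Mcm7 and 1.09 for Mcm2. Mcm3 was measured at 47.4, 57.4 and 60.7 CPM in controls and 65.2, 70.6 and 52.7 CPM in treated libraries, so that the groups overlapped through anti-LILRB4 library 3. The log2 fold change of Mcm3, treated minus control, was 0.19 (SE, its standard error, 0.15), and from 0.09 without control library 1 to 0.30 without anti-LILRB4 library 3. Mcm4 was at 13.8, 21.4 and 23.4 CPM in controls and 25.5, 18.1 and 26.1 CPM in treated libraries. Mcm2 varied more, at 5.96, 8.30 and 9.91 CPM in controls and 3.90, 13.8 and 3.64 CPM in treated libraries, with the highest and the lowest value both in the treated group. Mcm5, Mcm6 and Mcm7 had log2 fold changes of -0.18, 0.04 and -0.08, each smaller than its SE of 0.25, 0.20 and 0.24. Exons of Mcm7 overlap those of Ap4m1 and Cops6 on the other strand and the microRNA genes Mir93 and Mir25, and the library kit did not mark strand.

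The proteins Cdc6, Cdc45 and Gins2 load or start the helicase. Cdc6, which acts with the origin recognition complex, had 44, 15 and 30 reads in controls and 77, 103 and 12 reads in treated libraries, or 0.994, 0.372 and 0.682 CPM against 1.71, 1.80 and 0.291 CPM. Anti-LILRB4 libraries 1 and 2 lay above all controls and library 3 lay below them. Cdc45 was at 4.74, 0.594 and 2.75 CPM in controls and 1.15, 2.03 and 1.19 CPM in treated libraries. The log2 fold change, -0.88 (SE 0.63), came to -0.20 without control library 1. Exons of Cdc45 overlap Ufd1 on the other strand over 209 bases. Gins2, a GINS subunit, was at 9.49, 5.37 and 4.57 CPM in controls and 3.45, 5.62 and 7.81 CPM in treated libraries, and 2758 bases of its exons overlap Gse1 on the other strand.

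Pcna, the sliding clamp that holds polymerases on DNA, was the replication gene with the highest level per length. By mean CPM Mcm3 was higher, at 59.0 against 54.7 for Pcna. Pcna was measured at 67.8, 51.4 and 54.0 CPM in controls and 62.5, 45.1 and 47.6 CPM in treated libraries. The groups overlapped, with a log2 fold change of -0.16 (SE 0.17) that became -0.03 when control library 1 was left out and -0.31 when anti-LILRB4 library 1 was. Tyms, which makes thymidylate, was at 67.0, 46.6 and 58.5 CPM in controls and 41.5, 50.1 and 44.9 CPM in treated libraries. Means were 57.4 ± 10.2 CPM (SD, n = 3) and 45.5 ± 4.34 CPM, and 1 treated library, number 2, lay inside the control range. For Tyms the log2 fold change was -0.33 (SE 0.16), and the adjusted p in edgeR's quasi-likelihood test was 0.635, the smallest among the replication genes. Rrm2, the subunit of ribonucleotide reductase whose supply follows the cell cycle, was at 2.35, 1.51 and 2.73 CPM in controls and 5.91, 5.02 and 1.46 CPM in treated libraries. Treated libraries 1 and 2 thus exceeded every control and library 3 was lower than every control. The log2 fold change of Rrm2 was 0.91 (SE 0.50), opposite in sign to that of Tyms although both enzymes supply DNA precursors. An annotated processed copy, Pcna-ps2, held 68 to 123 reads, so the split of reads between it and Pcna is uncertain.

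Chromatin factors completed the replication genes. Uhrf1, which brings the maintenance DNA methyltransferase to newly copied DNA, was at 182, 3 and 52 reads in controls and 85, 162 and 25 reads in treated libraries. Its CPM differed 55.3-fold between control library 1, the highest, and control library 2, the lowest, so that the whole range lay within the control group. Hells, a chromatin remodeller, had 159, 117 and 75 reads in controls and 182, 97 and 62 reads in treated libraries. Log2 fold changes were -0.01 for Uhrf1 and -0.18 for Hells, with SEs of 0.97 and 0.47.

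Mki67, the proliferation marker that coats mitotic chromosomes, was the member with the largest fold change. It had 7, 2 and 3 reads in controls and 16, 94 and 11 reads in treated libraries, or 0.158, 0.050 and 0.068 CPM against 0.354, 1.65 and 0.267 CPM. Every treated library was above every control, and anti-LILRB4 library 2 held most of the reads. Its fitted log2 fold change was 3.00 (SE 0.95, edgeR adjusted p 0.506), and it was 1.73 without anti-LILRB4 library 2 (edgeR adjusted p = 0.864). Mki67 entered the test only through the treated group, since the filter asked for 0.225 CPM in 3 libraries and 0 control libraries reached it, so a difference in that direction was built into its being tested. With no filter on low counts its edgeR adjusted p was 0.165, the smallest over the alternatives tried, and 0.864 was the largest, while DESeq2 gave it none.

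No other tested mitosis gene had groups that stood apart. Cdk1, the kinase that starts mitosis, was at 10.4, 7.23 and 6.16 CPM in controls and 7.68, 3.83 and 8.18 CPM in treated libraries, and was lowest in the library where Mki67 was highest. Its partners were Ccnb1 at 3.28, 0.966 and 0.841 CPM in controls and 2.72, 1.03 and 2.86 CPM in treated libraries, and Ccnb2 with 104, 84 and 264 reads against 154, 151 and 53 reads. Ccna2, which acts from S phase into mitosis, was at 0.655, 1.16 and 0.682 CPM in controls and 0.886, 0.420 and 0.752 CPM in treated libraries, and 510 bases of its exons overlap Exosc9. The 2 B-type cyclins were therefore high in different libraries, Ccnb1 in control library 1 and Ccnb2 in control library 3. A processed copy of the latter, Ccnb2-ps, held 64 to 129 reads, beside 53 to 264 reads of Ccnb2, so the level of Ccnb2 is uncertain.

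Mitotic kinases and their partners were uneven from library to library. Aurka, which builds spindle poles, was at 1.42, 1.34 and 5.48 CPM in controls and 4.32, 1.35 and 0.655 CPM in treated libraries. Its activator Tpx2 had 12, 1 and 33 reads in controls and 13, 1 and 26 reads in treated libraries, and its log2 fold change of -0.18 had an SE of 1.21, the largest among the tested members. Aurkb and Birc5 (survivin) belong to 1 complex, the chromosomal passenger complex. Aurkb was at 1.88, 1.29 and 0.136 CPM in controls and 3.59, 1.47 and 0.437 CPM in treated libraries. Birc5 was at 1.97, 0.396 and 0.227 CPM in controls and 2.81, 0.630 and 1.80 CPM in treated libraries. Both were lowest in control library 3 and highest in anti-LILRB4 library 1, with overlapping groups. Plk1, a kinase of mitotic entry, had 4, 17 and 2 reads in controls and 35, 46 and 2 reads in treated libraries, and 156 bases of its exons overlap Gm44985.

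Bub1 and Bub1b act in the spindle checkpoint, which holds cells until chromosomes are attached. Bub1 had 0, 8 and 12 reads in controls and 0, 20 and 2 reads in treated libraries and was not tested, as it reached the filter level in only 2 libraries. Bub1b had 94, 14 and 89 reads in controls and 4, 104 and 3 reads in treated libraries, so that 3 libraries held most of its reads, of both groups. The log2 fold change of Bub1b was -1.16 (edgeR adjusted p = 0.826). It was -4.16 without anti-LILRB4 library 2 (edgeR adjusted p = 0.655), which alone of the treated libraries held more than 10 reads of it.

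Centromere genes ranged from well measured to scarce. Cenpa, the histone H3 variant of centromeres, was at 6.46, 5.60 and 3.77 CPM in controls and 6.95, 5.64 and 7.62 CPM in treated libraries, and its 2.02-fold range over libraries was the smallest among the mitosis genes. Cenpf, a kinetochore protein, was at 1.15, 2.40 and 1.27 CPM in controls and 0.819, 1.47 and 2.26 CPM in treated libraries. Cenpe, a kinetochore motor, had 19, 4 and 55 reads in controls and 30, 7 and 2 reads in treated libraries. Motor Kif11, which pushes spindle poles apart, had 3, 3 and 6 reads in controls and 11, 13 and 1 reads in treated libraries and was not tested. Nusap1, a spindle protein, had 44, 25 and 66 reads in controls and 67, 126 and 32 reads in treated libraries. Its exons overlap Oip5 on the other strand over 172 bases. None of these 5 genes had groups that stood apart.

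The remaining mitosis genes act at the exit from mitosis or on DNA topology. Cdc20, the activator of the anaphase-promoting complex, was at 0.633, 1.46 and 0.796 CPM in controls and 2.72, 1.17 and 2.04 CPM in treated libraries, with anti-LILRB4 library 2 inside the control range. Cdc20 had a log2 fold change of 1.04 (SE 0.50, edgeR adjusted p 0.641), and 53 bases of its exons overlap Elovl1. Ube2c, the ubiquitin-conjugating enzyme of the same complex, had 37, 10 and 20 reads in controls and 2, 68 and 4 reads in treated libraries, and 592 bases of its exons overlap Tnnc2, a gene of the other strand. Ube2c was thus lowest in the 2 treated libraries where Cdc20 was highest. Top2a, the topoisomerase that untangles copied DNA, was at 0.655, 0.817 and 0.455 CPM in controls and 2.59, 0.910 and 0.388 CPM in treated libraries. For Top2a the log2 fold change was 1.01 (SE 0.70), and 0.02 without anti-LILRB4 library 1 (edgeR adjusted p = 0.998). Exons of Top2a overlap Gm23451 over 122 bases.

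Stmn1, which is also expressed in cells that do not divide, was at 15.1, 12.0 and 11.6 CPM in controls and 18.1, 16.8 and 12.6 CPM in treated libraries. Means were 12.9 ± 1.89 CPM (SD, n = 3) and 15.8 ± 2.87 CPM. A log2 fold change of 0.30 (SE 0.21, edgeR adjusted p 0.768) was within the overlap of the groups. Exons of Stmn1 overlap Gm23634 over 66 bases.

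No member was called. Of the 35 genes, 33 passed the filter and were tested, all 14 of replication, 18 of mitosis and Stmn1. In edgeR's quasi-likelihood test 0 members passed a Benjamini-Hochberg adjusted p of 0.05, beside 0 of all 18210 genes tested (0%), and the smallest adjusted p among members was 0.506. At an unadjusted p under 0.05 there was 1 member, Mki67, beside 8.03% of all genes. It was in the higher direction, which held 4.12% of all genes, and 0 members were in the lower direction, which held 3.91%. DESeq2 called 0 members, beside 0.928% of all genes, and edgeR with no filter called 0 of 35, beside 0.847%. The groups did not overlap in 1 tested member, again Mki67, beside 14.7% of all genes (6.94% with treated libraries above and 7.8% below). Log2 fold changes were positive in 5 and negative in 9 of the replication genes, with a median of -0.12, and positive in 9 and negative in 9 of the tested mitosis genes, with a median of 0.13. Over all genes tested the median was -0.01. Leaving out 1 library at a time moved the log2 fold change by over 1.5 times, or across 0, in 32 of the 33 tested members, with Cdc20 the exception. In 8 of 14 replication genes and 10 of 18 tested mitosis genes the fold change was smaller than its own SE. The authors' deposited table, from a DESeq2 analysis by its column names, listed all 35 genes, gave 33 of them an adjusted p, and had 0.171 for Mki67 as the smallest.

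**Figure D3:**
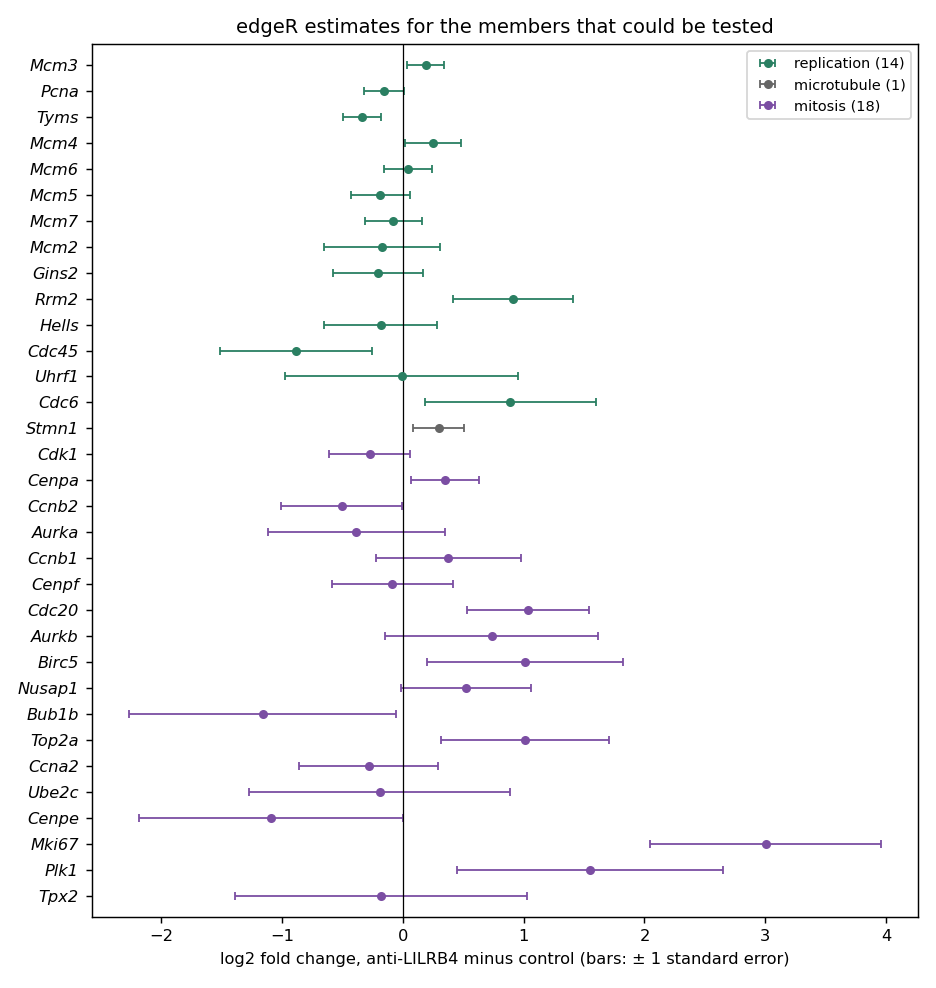
Points are edgeR log2 fold changes, anti-LILRB4 minus control, of the 33 tested members with bars of 1 SE, grouped by role and sorted by mean CPM. Replication genes with high CPM have short bars near 0, bars lengthen toward the scarce mitosis genes, and Mki67 stands at 3.00.

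Set against each other, replication and mitosis genes showed no difference in response that exceeded the spread between libraries. The mean log2 CPM over the 14 replication genes was 2.93 ± 0.40 (SD, n = 3) for controls and 2.97 ± 0.37 for treated libraries, 0.04 apart. Over the 20 mitosis genes the groups were at -0.38 ± 0.20 and -0.24 ± 0.43, a difference of 0.14. Mitosis minus replication was -3.51, -3.09 and -3.32 in controls and -3.05, -3.28 and -3.29 in treated libraries. The treated mean of this difference was 0.10 above the control mean, within a pooled SD of 0.18, and 1 treated library, number 1, lay outside the control range. No p-value is given for these averages, because the genes were chosen. Both averages were lowest in the same 2 libraries, control library 2 (-0.43 for replication and -0.22 for mitosis, relative to the control mean) and anti-LILRB4 library 3 (-0.38 and -0.36). These were also the 2 libraries with the fewest counted reads, 39805118 and 41948140, and a part of depth in this was not tested. In these log2 averages, control libraries 1 and 3 and anti-LILRB4 libraries 1 and 2 lay above the control mean. Control library 3 did so by 0.07 for replication and 0.06 for mitosis. Control library 1 and anti-LILRB4 libraries 1 and 2 did so by 0.18 or more for replication and by 0.16 or more for mitosis. In mean CPM per kilobase, anti-LILRB4 library 2 lay below the control mean, at 4.78 against 4.84 for replication and 0.397 against 0.444 for mitosis.

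**Figure D4:**
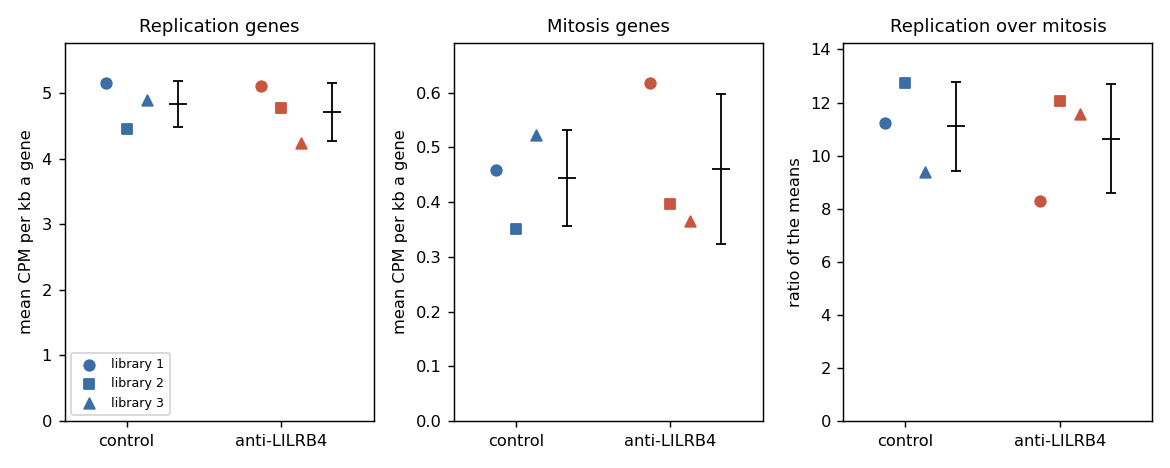
Panels give the mean CPM per kilobase a gene of the 14 replication genes, of the 20 mitosis genes, and their ratio, with 1 point per library and the mean with its SD (n = 3) beside each group. Controls and anti-LILRB4 libraries overlap in all 3 panels, and the ratio stays between 8.29 and 12.7.

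The spread between libraries was wide for mitosis genes. The highest library exceeded the lowest by a median of 9.20-fold among mitosis genes, over 5-fold in 12 of 20, with 1 of these 12, Bub1, at 0 reads in 2 libraries. Among replication genes the median was 2.29-fold, and 3 of 14, Cdc6, Cdc45 and Uhrf1, exceeded 5-fold. In edgeR the coefficient of variation between libraries beyond counting error had a median of 0.62 over tested mitosis genes and 0.28 over replication genes, beside 0.27 over all genes tested. This coefficient depends on abundance, and it lay above the trend at the same abundance in 13 of 18 mitosis and 9 of 14 replication genes, beside 33.5% of all genes. Reads here were copied by PCR without molecular identifiers, so they are not counts of molecules.

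**Figure D5:**
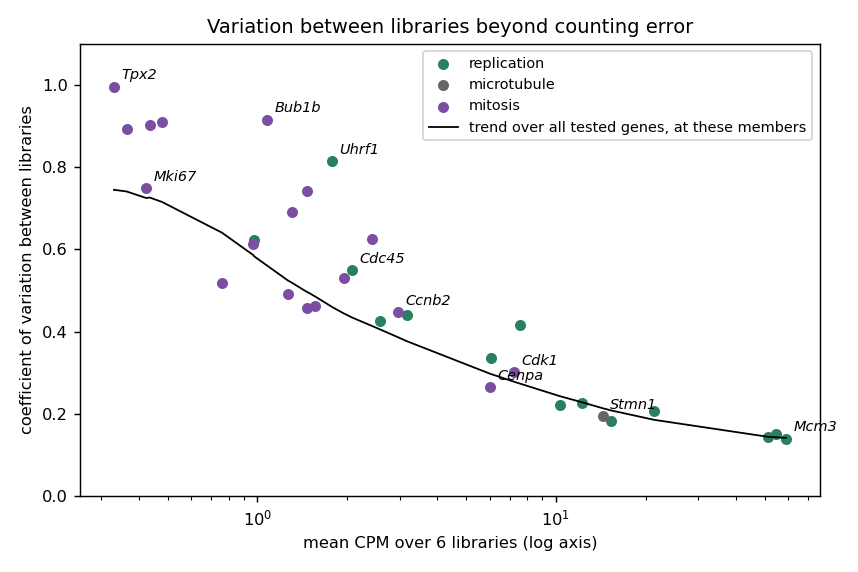
Each point is 1 tested member, with its mean CPM on a log axis and its edgeR coefficient of variation between libraries, and the line is the trend over all genes read at the members. Uhrf1, Bub1b and Tpx2 stand above the line, at 0.82, 0.92 and 1.00, and Mcm3 lies on it at 0.14.

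A wider list of 48 other replication genes, all tested, held 0 calls and a median log2 fold change of 0.01. An unadjusted edgeR p under 0.05 was found for 2 of them (4.17%), both higher in treated libraries, beside 8.03% of all genes tested. The groups did not overlap in 5 of the 48, beside 14.7% of all genes tested. Orc2, of the origin recognition complex, was at 9.31, 11.1 and 9.62 CPM in controls and 15.7, 13.1 and 17.8 CPM in treated libraries, with an edgeR adjusted p of 0.506, and 1150 bases of its exons overlap Nif3l1. Brca2 and Timeless, a repair factor and a fork protection factor, had log2 fold changes of 0.67 and -1.09 with overlapping groups.

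Of 52 other mitosis genes, 43 were tested and 0 were called, with a median log2 fold change of 0.24. An unadjusted edgeR p under 0.05 was found for 4 of them (9.30%), 2 in each direction, beside 8.03% of all genes tested. The groups did not overlap in 5 of the 43, beside 14.7% of all genes tested. Tacc3, a spindle protein, was at 7.68, 7.83 and 5.05 CPM in controls and 2.75, 3.94 and 4.85 CPM in treated libraries, all below the controls. Cks1b, a subunit of cyclin-dependent kinases, was at 13.2, 7.78 and 8.98 CPM in controls and 6.67, 7.44 and 5.53 CPM in treated libraries. Hmmr, which binds spindle microtubules, had 7, 8 and 0 reads in controls and 64, 22 and 13 reads in treated libraries. Its control libraries were at 0.158, 0.198 and 0 CPM, all under the filter level of 0.225 CPM. Like Mki67, Hmmr thus entered the test only through the treated group, so treated libraries above the controls were built into its being tested. Kif20a, a motor of cytokinesis, had 33, 12 and 15 reads in controls and 28, 79 and 70 reads in treated libraries, and 1271 bases of its exons overlap Cdc23. The edgeR adjusted p-values of Tacc3, Cks1b, Hmmr and Kif20a were between 0.550 and 0.620.

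Regulators of entry and arrest were better measured. Of 44 genes 42 were tested, with a median log2 fold change of 0.02 and 0 calls. An unadjusted edgeR p under 0.05 was found for 3 of them (7.14%), all lower in treated libraries. Over all genes tested that share was 8.03%, with 3.91% in the lower direction. The groups did not overlap in 5 of the 42, beside 14.7% of all genes tested. E2f1, a factor that turns on replication genes, was at 8.90, 3.00 and 5.87 CPM in controls and 3.28, 1.72 and 1.84 CPM in treated libraries, where anti-LILRB4 library 1 overlapped the control range. E2f1 had a log2 fold change of -1.38 (SE 0.44, edgeR adjusted p 0.506), and with no filter on low counts the edgeR adjusted p was 0.0448. Myc, Atr and Atm, a growth factor-responsive transcription factor and the kinases of the DNA damage response, had log2 fold changes of -0.39, -0.36 and -0.35, with edgeR adjusted p-values of 0.612, 0.612 and 0.624. Cdk6, the kinase that works with D cyclins, was at 156, 184 and 172 CPM in controls and 225, 217 and 166 CPM in treated libraries, and Ccnd1 was at 39.2, 47.9 and 49.6 CPM against 48.6, 46.8 and 57.2 CPM. The inhibitors Cdkn1a and Cdkn1b had log2 fold changes of 0.02 and 0.01. Cdkn1b, which holds cells at rest, was at 66.5, 55.3 and 57.0 CPM in controls and 61.2, 51.5 and 67.2 CPM in treated libraries.

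Markers of other cells varied between libraries, and their part in the values above was not tested. The 12 neutrophil markers summed to 1490, 746 and 801 CPM in controls and 335, 1432 and 417 CPM in treated libraries, led by S100a8 and Csf3r. The list did not move as 1. Csf3r was at 151, 174 and 189 CPM in controls and 200, 302 and 198 CPM in treated libraries, all above the controls. Retnlg, Ly6g and Mmp8, named after their values were seen, were lower in every treated library than in every control. The groups overlapped in the rest of the list. The 8 markers of granulocyte precursors, a dividing population of the marrow, summed to 53.6, 22.5 and 26.4 CPM in controls and 13.2, 46.7 and 8.18 CPM in treated libraries. Chil3, which monocytes and macrophages also make, gave most of that sum, Fcnb followed, and Ctsg was at 0 reads in every library. The rest of the list is given after its values were seen. Prtn3 had 60, 0 and 29 reads in controls and 1, 0 and 4 reads in treated libraries, Cebpe had 98, 13 and 0 against 1, 34 and 0 reads, and Mpo, Elane and Ms4a3 had 0 to 6 reads in each library. Both lists were highest in control library 1 and anti-LILRB4 library 2. In summed CPM this was not particular to them, since the lymphocyte and monocyte lists below were highest in the same 2 libraries. For monocyte markers control library 3 was close, at 30.8 CPM against 31.5 CPM in anti-LILRB4 library 2. In mean log2 CPM, lymphocyte markers were higher in anti-LILRB4 library 3 (0.007) than in anti-LILRB4 library 2 (-0.125). In control library 1 and anti-LILRB4 library 2, lymphocyte markers summed to 144 and 149.7 CPM, and monocyte markers to 47.3 and 31.5 CPM. Among the 35 members, Uhrf1 and Ube2c also had these as their highest 2 libraries. The highest CPM fell in one of these 2 libraries, of 6 in all, for 10 of 14 replication genes and 8 of 20 mitosis genes. The share over all genes was not obtained, so these counts are not read as a result about the members. Anti-LILRB4 library 2, with the most Mki67, was also the library with the most erythroid markers, 33.8 CPM over 6 genes led by Hbb-bs and Hba-a1, beside 0.0904 to 0.873 CPM in the others. Lymphocyte markers, led by Cd79b and Cd79a, summed to between 49.6 and 144 CPM in controls and between 91.5 and 149.7 CPM in treated libraries. The 10 markers of oligodendrocyte precursors and neural progenitors, cells that divide in the adult brain, led by Egfr and Cspg4, summed to at most 1.26 CPM. Monocyte markers, led by Ccr2 and Plac8, lay between 23.7 and 47.3 CPM, border macrophage markers, led by Pf4 and Ms4a7, between 38.0 and 76.6 CPM, and endothelial markers, led by Pecam1 and Kdr, between 11.1 and 24.6 CPM. Astrocyte markers were between 247 and 289 CPM, nearly all from Slc1a3.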

How the data were processed

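Sorted microglia of 3 control and 3 anti-LILRB4 libraries were profiled by RNA sequencing, and sample titles gave group and replicate number. STAR, Subread, featureCounts, Salmon and DESeq2 1.38.3 are named, without their roles, per the submitters' processing notes. Build, annotation and the treatment of reads that match several genes: not given in the sources used here. The kit (SMARTer Ultra Low, per the labels' protocols) does not mark strand, so a gene and an overlapping gene of the other strand cannot be told apart. The authors deposited whole counts per gene, in which 287 repeats of a gene were dropped. Their second table, per the file headers, gives a log2 fold change and its error, a test score, a p-value with its adjusted form, and a normalized mean (a signal), and was used only where named.

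Genes were tested on counts with edgeR 4.0.16 in R 4.3.3: filterByExpr (minimum count 10), TMM, quasi-likelihood F test with no covariate, and Benjamini-Hochberg adjustment over 18210 genes. An SE was obtained from the log2 fold change and the square root of its F. Log2 CPM used a prior count of 2, and averages over a role took in every member, tested or not. Exon lengths and overlaps came from GENCODE M21 (GRCm38), joined by Ensembl ID, and promoters from RefSeq (GRCm38.p6). The length of a gene was all bases covered by any of its annotated exons, so levels per kilobase and their ranks depend on the annotation. DESeq2 1.42.0, voom of limma 3.58.1, other scalings, other filters, a replicate block and leaving out each library were alternatives. The test was checked on simulated counts, and every pair of libraries differed by more than sampling noise. Members and lists were chosen with earlier results of these data known. All 35 members are named, with the 4 genes of smallest p in each of 3 other lists, 4 regulators fixed by name (Ccnd1, Cdkn1a, Cdkn1b, Cdk6), and the 2 most abundant markers per cell type with those at 0 reads. A few genes that this rule would name are not reported here. Python 3.11.15 and matplotlib 3.10.9 drew the figures.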

Additional observations from a re-analysis of the deposited data

How the results depend on the processing

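The limits of these data are 3 libraries a group and few reads of most mitosis genes. Members past the threshold numbered 0 in every alternative, with 0 to 4 at an unadjusted p under 0.05. Over all genes, DESeq2 called 169 and edgeR with no filter called 300, against 0 in edgeR with the filter (1463 at an unadjusted p under 0.05), in voom (1636) and in the other alternatives run. Of 421 alternative log2 fold changes of the 33 tested members, 387 kept their direction. Under settings that kept all libraries only Uhrf1 reversed among members, to 0.027 with library size only, 0.98 in voom, 0.0019 with no filter and 0.37 with the replicate block. Leaving out 1 library at a time gave log2 fold changes on both sides of 0, as lowest to highest, for Mcm2 -1.09 to 0.14, Mcm5 -0.36 to 0.011, Mcm6 -0.047 to 0.18, Mcm7 -0.23 to 0.035, Gins2 -0.51 to 0.18, Hells -0.77 to 0.067, Uhrf1 -0.56 to 1.49, Cdk1 -0.46 to 0.0096, Ccnb2 -0.82 to 0.14, Ccna2 -0.51 to 0.042, Tpx2 -1.20 to 1.04, Aurka -1.45 to 0.61, Aurkb -0.20 to 1.37, Cenpe -2.73 to 0.069, Cenpf -0.49 to 0.33, Ube2c -2.81 to 0.35, Cdkn1a -0.18 to 0.25 and Cdkn1b -0.081 to 0.12. On one side of 0 the ranges were Mcm3 0.09 to 0.30, Mcm4 0.053 to 0.41, Pcna -0.31 to -0.027, Tyms -0.46 to -0.21, Rrm2 0.56 to 1.31, Cdc6 0.56 to 1.36, Cdc45 -1.35 to -0.20, Mki67 1.73 to 3.62, Top2a 0.021 to 1.44, Ccnb1 0.052 to 1.28, Birc5 0.49 to 2.48, Bub1b -4.16 to -0.64, Plk1 1.09 to 2.96, Cenpa 0.16 to 0.52, Nusap1 0.13 to 0.88, Cdc20 0.74 to 1.47 and Stmn1 0.19 to 0.44. The cause was not tested. Alternatives for the 16 genes that the naming rule takes from the other lists were added after seeing the data, and 199 of 206 kept their direction. Cdkn1b was at -0.0066 in voom, and E2f1 passed the threshold with no filter, at -1.37. The treated minus control difference in replication level was -0.053 with log2 of summed CPM, and from -0.18 to 0.25 without 1 library. In mitosis level it was -0.0085 to 0.39, and in mitosis minus replication -0.00062 to 0.21, without 1 library. Replicate numbers did not pair the libraries, as same-numbered libraries had correlations of deviations of 0.014, 0.029 and -0.014, and a library's own number was not always its best match. The replicate block gave 0 calls over all genes (1646 at an unadjusted p under 0.05) and 0 among members. Groups of 3 are too small for a test of outlying libraries.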
